A study of Mus musculus with 2 samples.

Results

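The cells described here are 98 T lineage cells of the adult thymus that carried transcripts of cell division or of the T cell receptor delta constant gene Trdc. They were taken from a single-cell RNA-seq library of CD64-sorted thymus cells. Of the 3214 barcodes of that library, 3188 had at least 500 UMIs (molecular tags, 1 for each transcript captured), at least 300 detected genes and at most 10% mitochondrial UMIs. Among these, 322 held at least 2 UMIs of Cd3d, Cd3e and Cd3g together, which encode the signalling chains of the T cell receptor. Members also needed at least 2 UMIs over Trdc and 3 division genes: Top2a, the DNA topoisomerase of dividing cells, Mki67, the Ki-67 antigen, and Hist1h1b, a linker histone made in S phase. They had to hold under 3 UMIs of the natural killer genes Nkg7, Klrb1c, Ncr1 and Klre1, and under 3 of the complement genes C1qa, C1qb and C1qc. The 98 cells made up 30.4% of the 322 Cd3 cells and 3.07% of all kept cells. The exact binomial 95% intervals were 25.5% to 35.8% and 2.5% to 3.73%. They were described against the 208 Cd3 cells with fewer than 2 UMIs of the 4 entry genes, called the other Cd3 cells below. Another 16 Cd3 cells met the entry rule and failed the natural killer or C1q limit.

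T cells develop in the thymus from progenitors that lack both coreceptors, CD4 and CD8. Progenitors that have rearranged a beta chain pair it with the pre-T alpha chain (Ptcra), divide rapidly, switch on CD8 and then CD4, and leave the cell cycle as double positive cells that rearrange the alpha chain locus. Gamma-delta T cells branch off before that burst. The Trdc gene lies inside the alpha chain locus and is removed from an allele when its alpha chain is rearranged. Selected double positive cells then become single positive cells, which switch on genes for leaving the thymus.

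The study sorted cells of the C57BL/6 mouse thymus on surface CD64, the IgG receptor encoded by Fcgr1, and made 2 libraries, dated 2021 and 2024, with the 10x Genomics 3′ chemistry. The series title places it in work on the kinds and origins of thymic macrophages, and both libraries carry the cell type label macrophage, with no treatment or genotype contrast and no number or sex of mice. The 2021 library held 8534578 UMIs, with a median of 2157.5 per barcode, and the 2024 library had 2815 barcodes and 24569270 UMIs. Gene names were used for the 2021 library alone, so all gene values come from 1 library, have no replicate check, and carry no test. All intervals are at the 95% level, Poisson for summed UMIs and binomial for shares, both exact, and they cover counting error only. Levels are CPM, the UMIs of a gene per 1e6 UMIs summed over the same cells.

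The rule used the same counts that are described here, so its genes and everything tied to them are a description of chosen cells. Division genes decided entry for almost all of them. In 95 of the 98 cells the 3 division genes alone reached 2 UMIs, and 18 of those 95 also had at least 2 Trdc UMIs. Only 3 cells entered on Trdc alone. Top2a gave 429 UMIs in 90 cells, Hist1h1b 398 UMIs in 73 cells, Mki67 123 UMIs in 61 cells, and Trdc 83 UMIs in 43 cells. The sum over the 4 genes had a median of 8 UMIs per cell and a maximum of 38. Just inside the threshold lay 9 cells with a sum of 2, and just outside lay 21 other Cd3 cells with a sum of 1, while 187 had none. The 9 cells had a median of 1644 UMIs and the 21 cells a median of 885.

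**Figure D1:**
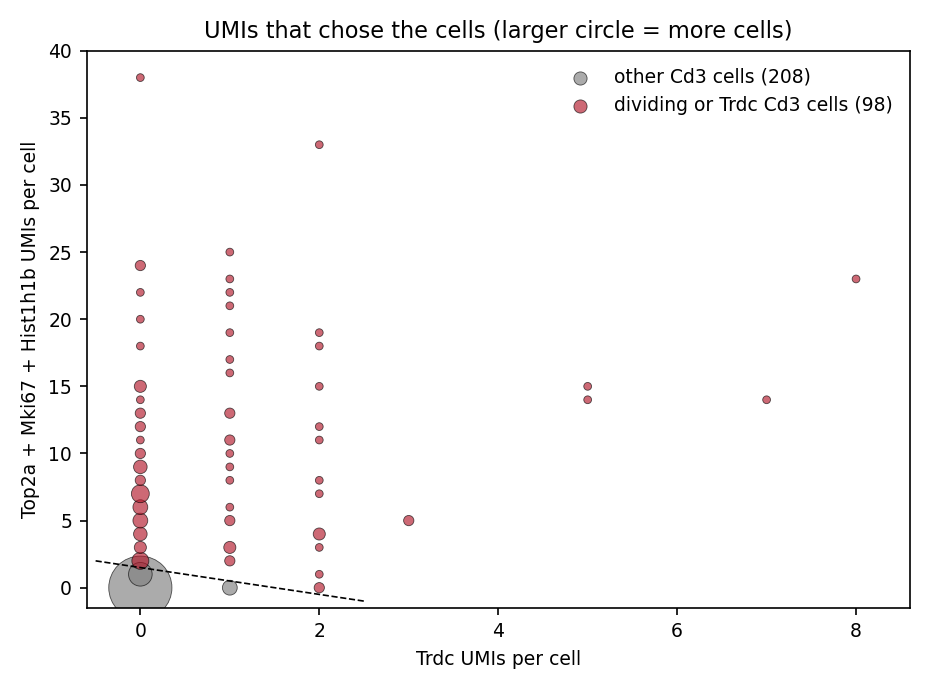
UMIs per cell of Trdc (x axis) and of Top2a, Mki67 and Hist1h1b together (y axis) in the 98 chosen cells (red) and the 208 other Cd3 cells (grey), with larger circles for more cells and the dashed line marking the entry threshold. Most chosen cells lie high on the division axis, 55 of the 98 have no Trdc UMI, and 3 lie to the right on Trdc alone.

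Depth moved with the choice. The 98 cells had a median of 3067.5 UMIs and 1384.5 genes (range 586 to 17491 UMIs), and the other Cd3 cells a median of 873.5 UMIs and 556 genes (range 503 to 10701 UMIs). The part of this depth gap in the choice was not tested. CPM of summed counts were set beside shares of cells after each cell was thinned at random to 1000 UMIs, which 94 of the 98 and 89 of the 208 cells reached. Ribosomal protein genes took 23.9% of the UMIs of the 98 cells and 24.5% of those of the other Cd3 cells. Median mitochondrial shares were 0.949% and 1.23%.

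Transcripts of other lineages were present in some cells of both groups. At least 3 UMIs of the macrophage, monocyte, neutrophil, B lineage or plasmacytoid dendritic cell markers, after genes that Cd3 cells themselves hold were taken off the lists, were found in 20 of the 98 cells (20.4%) and in 56 of the 208 (26.9%). One member held 954 UMIs of the neutrophil genes S100a8 and S100a9, and the next highest member held 6. At least 50 UMIs of Cd74 and the class II genes H2-Aa, H2-Ab1 and H2-Eb1 were found in 4 members. The macrophage list of 9 genes gave 60 UMIs in the 98 cells (157 CPM) and 280 in the other Cd3 cells (989 CPM), which had no C1q limit. With that limit on both sides and other lineages left out, it gave 14 and 25 UMIs (60.1 and 170 CPM). Adgre1, Mertk, Vcam1 and Cd5l were at 0 in the 98 cells. Fcgr1, the gene of the sorted protein, gave 1 UMI in the 98 cells, 2 UMIs in the 208 and 265 UMIs in 206 of the 3090 kept cells that were no members. The limits on Cd3 and C1q genes helped to set these low macrophage values. Scrublet called 3 doublets among the 3188 cells (0.0941%), too few to count as working, and none of them was in either group. The comparison was repeated on 78 members and 148 other Cd3 cells that had no such sums, with the natural killer and C1q limits set on both sides, and its values are given as the values without other lineages. Of the cells with at least 1000 UMIs, 74 of 94 members and 49 of 89 other Cd3 cells were among these. At 2000 UMIs or more it was 48 of 68 and 9 of 31. The deeper other Cd3 cells thus fell outside these limits in a larger share than all 208.

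The label of these cells, early thymocytes, was checked against its markers. Dntt, the terminal transferase that adds bases at receptor joints, stood at 544 CPM in the 98 cells (interval 472 to 623; a UMI in 77 cells, up to 7 per cell) and at 321 CPM in the other Cd3 cells (259 to 395). Thy1, the surface glycoprotein of thymocytes, stood at 821 and 484 CPM. Tcf7, the transcription factor TCF-1, stood at 1088 and 724 CPM. These 3 genes were higher in the chosen cells by 1.69, 1.7 and 1.5 times. The gaps were wider between deeper cells: with at least 1000 UMIs per cell their log2 ratios were 1.42, 1.54 and 1.42, against 0.74, 0.75 and 0.58 for all cells. Other settings narrowed them, and the lowest log2 ratios over all alternatives were 0.55, 0.45 and 0.31. For Dntt and Thy1 these lowest values were those without other lineages. The limit of 1000 UMIs also changed which other Cd3 cells were compared, and the part of each was not tested. Bcl11b, which fixes T lineage commitment, stood at 445 CPM (380 to 517) against 495 CPM (416 to 584), and its log2 ratio went from -0.15 to 0.48 with at least 1000 UMIs per cell, so no direction is given. Uhrf1, a factor that maintains DNA methylation at replication, stood at 395 against 49.5 CPM, a ratio of 7.98 (4.61 to 15). Its ratio follows from the choice by division genes and is no check of the label. Through Dntt, found in 77 of the 98 cells, the markers mark most of these cells as thymocytes.

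The earliest stages were hardly represented. Kit, the receptor of the first progenitors, gave 3 UMIs in 2 cells, and Il2ra, the CD25 chain of the stages around beta chain rearrangement, gave 9 UMIs in 4 cells. Lyl1, Hhex and Flt3 had 3 UMIs each, and Dtx1 and Erg had none. Against this, Cd8b1 was detected in 84 of the 98 cells and Cd8a in 78. Trbc2, a beta chain constant gene, was detected in all 98. These include the 6 cells with no Cd4 or Cd8 UMI, so Trbc2 did not separate stages here. Cells with both a Cd8 and a Cd4 UMI and cells with Cd8 alone made up 92 of the 98. The word early therefore fits few of them, and they are called dividing Cd3 cells below. In 180 dividing cells of the same library with no Cd3 UMI, at a median of 6027.5 UMIs, Cd8a had a UMI in 10 cells, Cd8b1 in 4, Cd4 in 6, Dntt in 5, Trdc in 1 and Trbc2 in 10. These low shares are those of cells picked for having no Cd3 UMI, and free RNA, mixed droplets and T cells with uncaptured Cd3 cannot be told apart in them.

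Cell cycle genes were high in the dividing Cd3 cells, as the choice by 3 division genes makes them. Of 5592 genes with at least 15 UMIs over both groups, 734 (13.1%) were at least 2-fold higher in the dividing Cd3 cells and 560 (10.0%) at least 2-fold lower. These calls are on log2 ratios of CPM with 10 CPM added to both sides, and the median over all genes was 0.07. Without other lineages, 616 of 3822 genes (16.1%) were higher and 319 (8.35%) lower. All 36 genes of the S phase list were at least 2-fold higher, with a median log2 ratio of 2.12. In the G2 and mitosis list 34 of the 35 genes compared were higher, with a median of 2.84. Without other lineages the medians were 2.05 and 2.88. No gene of either list was 2-fold lower.

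Among the S phase genes, Rrm2, the regulated subunit of ribonucleotide reductase, had 169 UMIs in the dividing Cd3 cells (442 CPM) and 4 in the other Cd3 cells (14.1 CPM), a ratio of 31.3 (12 to 116). Tyms, which makes thymidylate, had 115 UMIs against 4. Pclaf, a partner of the replication clamp, had 419 against 20, or 1096 against 70.6 CPM. Pcna, the clamp itself, stood at 667 against 106 CPM, and Dut, which keeps uracil out of DNA, at 1090 against 159 CPM. The helicase subunit Mcm6 stood at 254 against 56.5 CPM, a ratio of 4.49 (2.63 to 8.16). Each of these genes was higher in the dividing Cd3 cells with intervals that did not meet.

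Among the genes of G2 and mitosis, Cdca3, a trigger of mitotic entry, had 132 UMIs in 60 dividing cells and 2 UMIs in the other Cd3 cells, a ratio of 48.9 with a wide interval of 13.3 to 408. Spc24, a kinetochore subunit, had 105 against 3 UMIs. Ube2c, the conjugating enzyme of the anaphase-promoting complex, stood at 816 against 63.6 CPM. Cdk1, the mitotic kinase, stood at 306 against 24.7 CPM and Birc5, survivin, at 698 against 81.2 CPM. Prc1, which bundles the spindle midzone, had 57 UMIs against 1, and the spindle motor Kif11 had 71 against 2. Nusap1, which stabilizes spindle microtubules, had 207 UMIs in 65 dividing cells, and Ccna2, cyclin A2, had 99 UMIs against 3. The ratio was smallest for Smc4, a condensin subunit, at 1.64 among the genes named here.

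Chromatin and tubulin genes gave the largest numbers of molecules. Hmgb2, a chromatin protein, had 2894 UMIs in 97 of the 98 cells, a median of 23 per cell, and stood at 7567 CPM against 996 CPM in the other Cd3 cells. Stmn1, which destabilizes microtubules, stood at 2921 against 357 CPM, and Tubb5 at 2871 against 710 CPM. Replication-dependent histone genes Hist1h2ap and Hist1h2ae had 1641 and 1122 UMIs against 122 and 54. Histone genes and Tuba1b and Tuba1c have near-identical copies, so the split of reads among them is uncertain. The histone variant gene H2afx stood at 858 against 60 CPM. In the list of 21 genes, 19 were at least 2-fold higher and 1 was lower, with a median of 2.38. Over all genes 13.1% were higher and 10.0% lower. The linker histone Hist1h1c, which is also made outside S phase, stood at 75.8 CPM (50.8 to 109) against 120 CPM (83.2 to 168), and Hist1h2bc at 54.9 against 120 CPM, just at the 2-fold line.

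Both phases were present among the dividing Cd3 cells. The S phase list took a median of 0.693% of a cell's UMIs and the G2 and mitosis list 0.878%. The G2 and mitosis list exceeded the S phase list in 61 cells, the S phase list exceeded the other in 36, and they were equal in 1. At 1000 UMIs per cell the medians were 7 S phase and 8.5 mitotic UMIs, against 0 and 0 in the other Cd3 cells and 2 and 4 in dividing cells without Cd3. At that depth 92 of 94 dividing Cd3 cells held at least 5 UMIs of the 72 genes, and 10 of 89 other Cd3 cells did. The 9 members at a sum of 2 had medians of 0.328% and 0.593%, and the 21 other Cd3 cells at a sum of 1 had medians of 0.0783% and 0.131%.

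**Figure D2:**
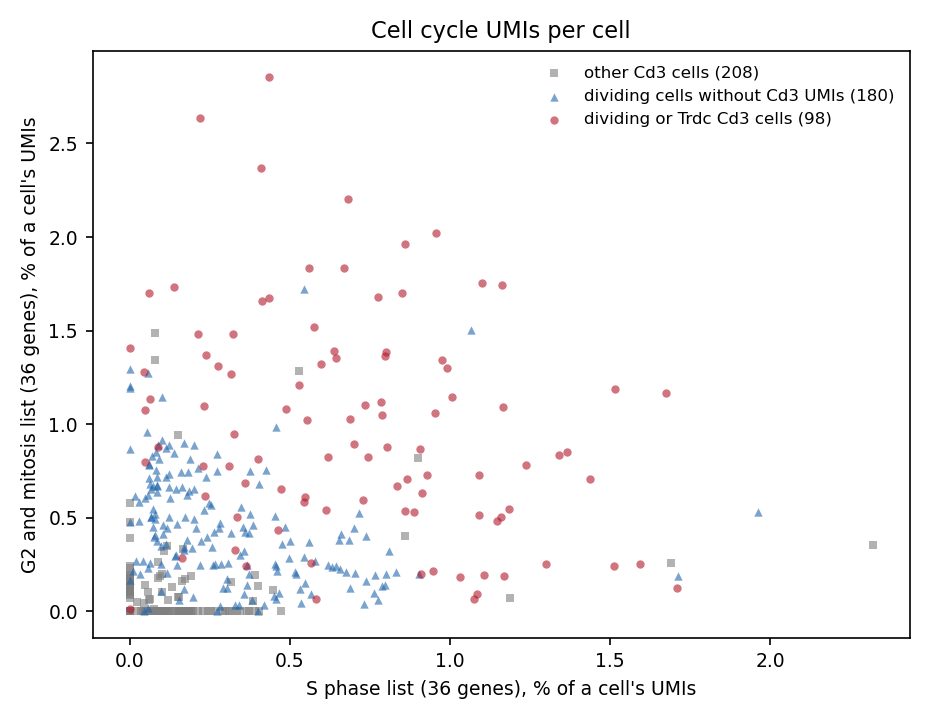
Percent of each cell's UMIs from the S phase list (x axis) and the G2 and mitosis list (y axis), 1 point per cell, for 98 dividing Cd3 cells (red circles), 208 other Cd3 cells (grey squares) and 180 dividing cells without Cd3 UMIs (blue triangles). The red points spread along both axes, up to 1.71% and 2.85%, while most grey points lie near the origin.

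The promoters of these genes were read for the sequence elements that S phase and mitotic genes are known for, the E2F site and the CCAAT box with the cell cycle homology region (CHR). The searched letters were TTTGAA and TTCGAA for the CHR, CCAAT for the CCAAT box, and TTTCCCGC, TTTGGCGC, TTTCGCGC and TTTGCCGC for E2F, on both strands, in the 250 bases before each RefSeq start in GRCm38.p6. The 120 bases before the start are shown for 2 mitotic genes that have both a CHR and a CCAAT box and 2 S phase genes that have E2F letters. They were taken in order of the log2 ratio of dividing over other Cd3 cells. Only promoters with the letters in those bases were eligible, and 1 chromosome was left out. Capitals mark the CHR and CCAAT letters in Prc1 and Kif11 and the E2F letters in Hells and Mcm6. Each is written on the gene's own strand, so that a match to the opposite strand appears as ATTGG or TTCAAA. In Mcm6 the first run of capitals is a pair of overlapping E2F matches, 1 on each strand. The sequences lie at chr7:80294356-80294475 (plus strand), chr19:37376262-37376381 (plus strand), chr19:38930870-38930989 (plus strand) and chr1:128359706-128359825 (minus strand).
Prc1: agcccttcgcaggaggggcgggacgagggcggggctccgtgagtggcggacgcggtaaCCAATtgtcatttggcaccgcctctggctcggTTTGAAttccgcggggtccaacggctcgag
Kif11: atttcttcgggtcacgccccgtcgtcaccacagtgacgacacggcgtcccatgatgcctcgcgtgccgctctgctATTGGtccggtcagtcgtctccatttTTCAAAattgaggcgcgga
Hells: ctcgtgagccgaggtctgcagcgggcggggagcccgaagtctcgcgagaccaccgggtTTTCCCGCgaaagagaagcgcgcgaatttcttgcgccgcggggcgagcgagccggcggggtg
Mcm6: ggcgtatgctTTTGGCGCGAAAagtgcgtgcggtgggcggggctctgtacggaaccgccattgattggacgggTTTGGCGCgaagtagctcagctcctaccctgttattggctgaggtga

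A CCAAT box was found in 25 of 32 promoters of the G2 and mitosis list (78.1%), which covered 30 of its 36 genes, and in 33.8% of all 32851 promoters. A CHR was found in 11 of the 32 (34.4%), all of which also had a CCAAT box, against 6.02% of all promoters with both and 17.1% with a CHR. A CCAAT box was also found in 55.3% of S phase promoters, and a CHR with a CCAAT box in 21.4% of the 14 promoters of the selected and mature list. E2F letters were found in 8 of 38 promoters of the S phase list (21.1%), which covered 31 genes, in 1 of 32 of the mitotic list, in 3 of 17 of the early thymocyte list (17.6%), and in 1.86% of all promoters. Hells, a chromatin remodeller, had 58 UMIs in the dividing Cd3 cells and 8 in the others, a ratio of 5.37 (2.55 to 13). A match of letters is a description of the sequence and not of binding. The lists hold genes known for these elements, and no cause is drawn from the shares.

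Among the receptor genes, beta chain transcripts were abundant in both groups, alpha chain transcripts were low in the dividing Cd3 cells and pre-T alpha transcripts high. Trbc2 stood at 4064 CPM in the dividing Cd3 cells and 3504 CPM in the others, and Trbc1 at 1849 and 1812 CPM. For Trbc2 the log2 ratio was 0.21, and 1.02 with at least 1000 UMIs per cell. These neighbouring constant genes are near-identical, so their split is uncertain. Trac, the alpha chain constant gene, went the other way. It had 42 UMIs in 29 of the 98 cells (110 CPM, 79.2 to 148) and 204 UMIs in 114 of the 208 (721 CPM, 625 to 827), a ratio of 0.152 (0.107 to 0.213). At 1000 UMIs per cell, 13.8% of the dividing Cd3 cells and 36% of the others had a Trac UMI, so the direction was the same where depth was matched. Ptcra, the pre-T alpha chain, had 33 UMIs in 19 dividing Cd3 cells (86.3 CPM, 59.4 to 121) and 4 UMIs in the others (14.1 CPM, 3.85 to 36.2), a ratio of 6.11 (2.17 to 23.7). One cell held 14 of the 33 Ptcra UMIs. The log2 ratio of Ptcra stayed above 0 in all 17 alternatives, but the lowest was 0.59, which is under 2-fold. Ptcra and Trac were seen together in 5 cells, Ptcra alone in 14, Trac alone in 24, and 55 had neither.

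Recombination genes did not move together. At least 1 UMI of Dntt, Rag1 or Rag2 was found in 87 of the 98 cells. Rag1, which cuts receptor loci together with Rag2, stood at 345 CPM (289 to 409) against 735 CPM (638 to 842), while Rag2 had 24 UMIs against 11. For Rag1 the direction changed with the depth setting: at 1000 UMIs per cell the log2 ratio was 0.54 instead of -1.07. At that depth 33.0% of the dividing Cd3 cells against 20.2% of the others had a UMI. The setting also changed which other Cd3 cells were compared, as given above, and the part of each was not tested. No direction is given for Rag1.

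The Notch pathway, which drives the step before the coreceptors appear, had few molecules. Notch1 had 33 UMIs in 17 dividing Cd3 cells against 7 UMIs in the others, a ratio of 3.49 (1.52 to 9.35). Its target Hes1 had 27 UMIs in 12 cells against 5, and Notch3 had 6 UMIs against 0. At 1000 UMIs per cell, 4.26% of the dividing Cd3 cells and 4.49% of the others had a Notch1 UMI, and 0% and 3.37% a Hes1 UMI. Neither gene was thus found in a larger share of the dividing Cd3 cells where depth was matched. The log2 ratio of Notch1 nevertheless kept its sign in all 17 alternatives, 1000 UMIs per cell among them, and was 0.94 or more. Of the 15 genes of the early thymocyte list, 6 had enough UMIs to compare: Ptcra, Notch1 and Hes1 were at least 2-fold higher, Cd44, an adhesion receptor, was lower, and Il2ra and Gata3 were within 2-fold. The median over the 6 was 0.87, and over all genes 13.1% were at least 2-fold higher and 10.0% lower. Gata3, which T lineage cells need at several steps, stood at 99.4 (70.3 to 136) against 81.2 CPM (51.5 to 122), with overlapping intervals and a direction that changed between settings.

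Genes of selected and mature thymocytes were low in the dividing Cd3 cells. Of the 17 genes of that list, 15 were compared, 10 were at least 2-fold lower and none higher, with a median of -2.29 (-2.57 without other lineages). Over all genes compared, 10.0% were at least 2-fold lower and 13.1% higher. Ccr7, the chemokine receptor that leads selected cells to the medulla, had 5 UMIs in 2 cells (13.1 CPM) against 53 UMIs in 30 cells (187 CPM). S1pr1, the receptor for leaving the thymus, had 1 UMI against 24. Ms4a4b, a membrane protein of mature T cells, had 8 UMIs, all in 1 cell, against 122 UMIs in 47 cells. Klf2, a transcription factor behind S1pr1, stood at 133 (99.3 to 175) against 509 CPM (429 to 599). Cd69 and Itm2a, which respond to selecting signals, had 9 and 8 UMIs against 54 and 40. Il7r, the interleukin 7 receptor chain, had 3 UMIs against 23, and Foxp3, the factor of regulatory T cells, 0 against 6. Nr4a1, another gene of receptor signalling, was at 209 against 244 CPM with overlapping intervals. Cd2 and Cd27, surface receptors of the T lineage list, were lower too, Cd2 at 31.4 against 247 CPM and Cd27 at 115 against 297 CPM, though at 1000 UMIs per cell Cd27 was found in 14.9% and 15.7% of cells.

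**Figure D3:**
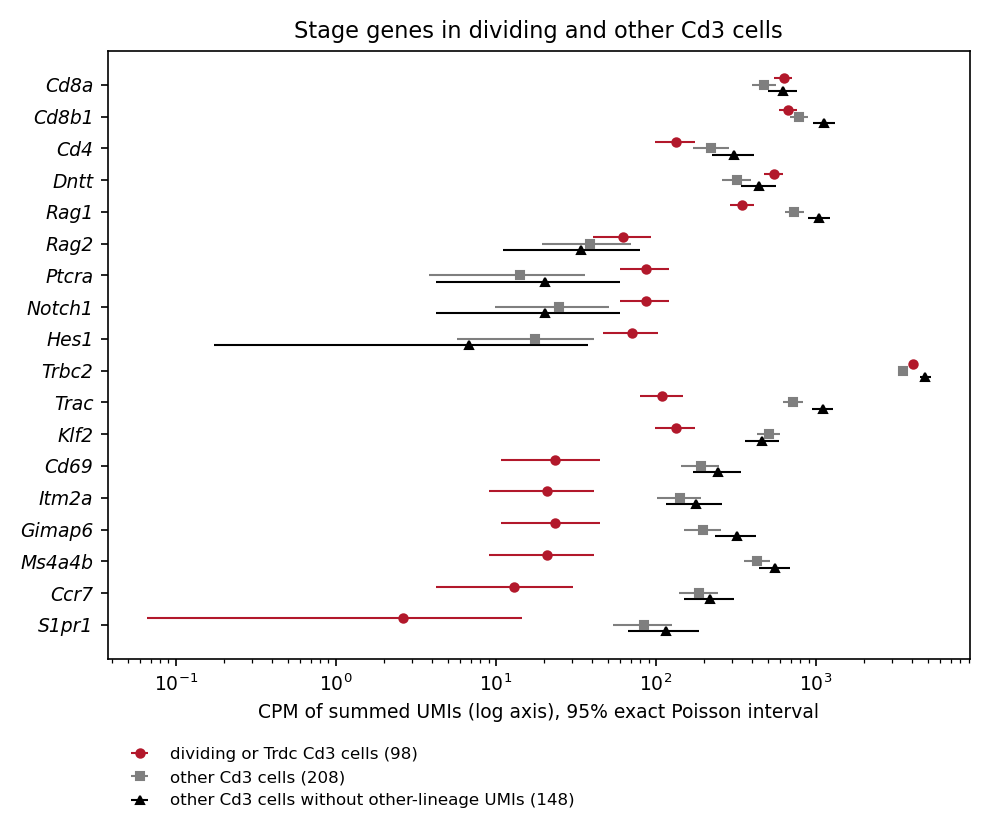
CPM of summed UMIs (log axis) with exact 95% Poisson intervals for 18 stage genes in 98 dividing Cd3 cells (red circles), 208 other Cd3 cells (grey squares) and the 148 of these without other-lineage UMIs (black triangles). The red points lie left of the others for Trac and the genes from Klf2 to S1pr1, and right for Ptcra, Notch1 and Hes1, of which Notch1 and Hes1 were not found in a larger share of the dividing Cd3 cells at 1000 UMIs per cell.

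Of the 13 genes of the double positive list, 10 differed by less than 2-fold, 3 were lower and the median was -0.04. Over all genes 10.0% were at least 2-fold lower and 13.1% higher. Cd8a stood at 628 CPM (551 to 712) against 477 CPM (400 to 564), Cd8b1 at 672 (592 to 759) against 784 CPM (684 to 894), and Themis, which tunes receptor signals in double positive cells, at 175 against 180 CPM. Aqp11 stood at 131 against 127 CPM. At 1000 UMIs per cell these genes were found more often in the dividing Cd3 cells, Cd8a in 58.5% against 27.0%, Cd8b1 in 59.6% against 27.0%, Themis in 24.5% against 7.87% and Aqp11 in 12.8% against 8.99%. Thus Cd8b1 went from a log2 ratio of -0.22 to 1.23. Cd4 was at 133 (99.3 to 175) against 223 CPM (171 to 285), and at 1000 UMIs per cell the direction was opposite, with a UMI in 20.2% against 12.4% of cells. The 3 lower genes were Rag1, Ccr9, a homing receptor, at 126 against 357 CPM but opposite in sign at 2000 UMIs per cell (log2 ratio 0.69), and Bcl6, with 4 against 16 UMIs. Bcl6 was found in 1.06% and 1.12% of cells at 1000 UMIs.

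Sorted by coreceptor transcripts, 36 dividing Cd3 cells had both a Cd4 and a Cd8 UMI (36.7%), 56 had Cd8a or Cd8b1 alone (57.1%), 6 had neither (6.12%) and 0 had Cd4 alone (exact interval up to 3.69%). At 1000 UMIs per cell, 18 of 94 had both, 58 had Cd8 alone, 1 had Cd4 alone and 17 had neither. Among the other Cd3 cells at the same depth, 2 of 89 had both, 30 had Cd8 alone, 9 had Cd4 alone and 48 had neither. These are detections of a UMI, and a cell with Cd8 alone can hold Cd4 transcripts that were not captured. Cd4 transcripts gave 51 UMIs in all, so many cells with Cd8 alone cannot be told from double positive cells.

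Other genes still moved with this split. From the 56 cells with Cd8 alone to the 36 cells with both, Satb1, a chromatin organizer that is strong in double positive cells, went from 731 CPM (628 to 845) to 2224 CPM (1934 to 2546). Bcl11b went from 295 to 959 CPM, Rag1 from 279 (217 to 353) to 633 CPM (483 to 814), Dntt from 436 to 801 CPM and Trac from 88.8 (55.7 to 134) to 211 CPM (129 to 326). The last pair of intervals overlapped slightly. Thy1 went from 678 to 1307 CPM, Tcf7 from 993 to 1486 CPM and Trbc2 from 3714 to 5967 CPM, so the gap was shared by general T lineage genes. Median depth was 3405.5 UMIs in the cells with Cd8 alone and 2098 UMIs in the cells with both, and its part in these gaps was not tested. Hes1 had 22 UMIs in 8 of the cells with Cd8 alone and 1 UMI in the cells with both. Gamma chain constant genes had 22 UMIs in 7 cells with Cd8 alone against 0 in the cells with both. Gzma had 93 UMIs in 15 of the cells with Cd8 alone, 58 of them in 1 cell, against 2 UMIs in the cells with both. G2 and mitosis genes together took 7134 CPM in cells with Cd8 alone and 10553 CPM in cells with both. The split was made after values were seen, and the cells with both are those in which Cd4 was captured.

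**Figure D4:**
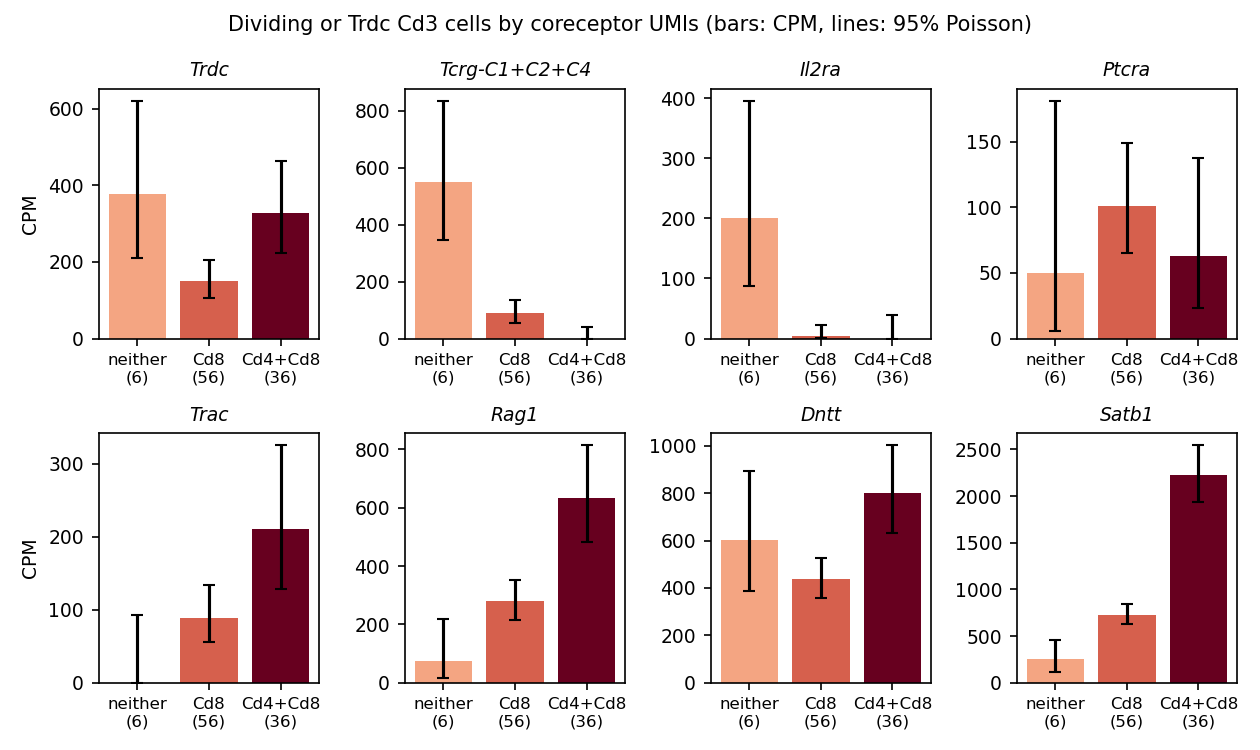
CPM (linear axes from 0) with exact 95% Poisson intervals for 8 genes in dividing Cd3 cells with neither coreceptor (6 cells), with Cd8 UMIs alone (56) and with Cd4 and Cd8 UMIs (36). Il2ra and the gamma chain constant genes are highest in the 6 cells, and Trac, Rag1 and Satb1 in the 36.

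The 6 cells without a coreceptor UMI held nearly all Il2ra UMIs of the group. Their depth was 3768 to 10272 UMIs, above the median of all 98 cells. Each held 3 to 6 Dntt UMIs and 2 to 6 Thy1 UMIs, and none held a Trac UMI. They carried 8 of the 9 Il2ra UMIs of the whole group, as 2, 2 and 4 UMIs in 3 cells, and 2 of the 33 Ptcra UMIs. Gamma chain constant genes gave 22 UMIs in 5 of the 6 (552 CPM, 346 to 835), against 22 UMIs in 7 of the other 92 (64.2 CPM, 40.2 to 97.2). Trdc was found in 4 of the 6, with 1, 2, 5 and 7 UMIs, though Trdc was itself an entry gene. Gzma, a granule protease, had 6, 5 and 3 UMIs in the 3 cells of greatest depth. S phase genes stood at 9001 CPM (8094 to 9982) in the 6 and 6823 CPM (6549 to 7105) in the 92, and mitotic genes at 4112 (3507 to 4792) and 8081 CPM (7782 to 8388).

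Gamma chain constant genes were found in fewer of these cells than Trdc, itself an entry gene. Of 23 genes of the gamma-delta list, 6 had enough UMIs to compare, and 1 was higher and 2 lower, against 13.1% and 10.0% over all genes. The median of the 6 was -0.52, which turned to 0.38 with at least 1000 UMIs per cell. Id3, a regulator also used outside gamma-delta cells, had 89 UMIs in 34 of the 98 cells (233 against 240 CPM), and Tmem176a and Tmem176b, which were found in 928 and 1062 of the other kept cells, had 32 and 28 UMIs. Tcrg-C1, Tcrg-C2 and Tcrg-C4, the gamma chain constant genes, had 7, 27 and 10 UMIs in the dividing Cd3 cells against 0, 6 and 0 in the others, and at least 1 of these UMIs was found in 12 of the 98 cells, against 43 with a Trdc UMI. Reads can be shared among these related constant genes. Sox13, Zbtb16, Blk, Il17a and Il23r, genes of gamma-delta T cells and their interleukin 17 programme, had 0 UMIs, and Maf had 2. Trdc had a UMI in 15 of the 36 cells with both coreceptors (327 CPM, 222 to 464) and in 24 of the 56 cells with Cd8 alone (149 CPM, 105 to 206). Among the other Cd3 cells Trdc had a UMI in 5 of 208, and the rule held them to at most 1. Members that entered on both Trdc and division genes were set against the 77 that entered on division alone: of 3650 genes, 92 (2.52%) were at least 2-fold higher and 336 (9.21%) lower. The leading gene was Gzma, with 58 of its 75 UMIs in 1 of the 18 cells. The lowest were the neutrophil genes S100a9, S100a8, Camp and Ngp, with 9 against 472 UMIs for S100a9, of which 439 lay in 1 of the 77 cells. The medians of the neutrophil and conventional dendritic cell lists were -3.66 and -2.36, and their part in the other differences was not tested. Rag1 was lower in the 18 cells by 1.26 on the log2 scale. The double positive and T lineage lists had medians of -0.61 and -0.27, so the gap was not particular to Rag1. S phase and mitotic medians were -0.09 and -0.26. Median depth was 3873.5 UMIs in the 18 cells and 2664 in the 77, and its part was not tested. This comparison used 98404 and 275454 UMIs. The 3 cells on Trdc alone, 8569 UMIs in all, were too few to describe.

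The dividing Cd3 cells were also set against the 180 dividing cells with no Cd3 UMI, at least 2 division UMIs among Top2a, Mki67 and Hist1h1b. Of 7273 genes, 1455 (20.0%) were at least 2-fold higher in the dividing Cd3 cells and 772 (10.6%) lower, around a median of 0.41. All 16 genes of the T lineage list were higher, with a median of 4.06, and this follows from the choice by Cd3. Lck, the kinase of the coreceptors, had 185 UMIs against 5, and Sh2d1a, the adaptor SAP, had 162 against 1. Igkc was lowest, with 17 against 4389 UMIs, of which 4202 lay in 1 dividing cell without Cd3. Most of the other leading genes on that side were those of neutrophil precursors. Prtn3 and Elane, neutrophil granule proteases, had 0 UMIs in the dividing Cd3 cells, and the granule genes Camp and Ngp had 177 and 171 UMIs there against 15667 and 12027. Cycle genes differed less: S phase and mitotic medians were 0.99 and 0.87, with 18 of 36 and 11 of 36 genes at least 2-fold higher. Ptcra was higher as well, with 33 UMIs against 1.

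**Figure D5:**
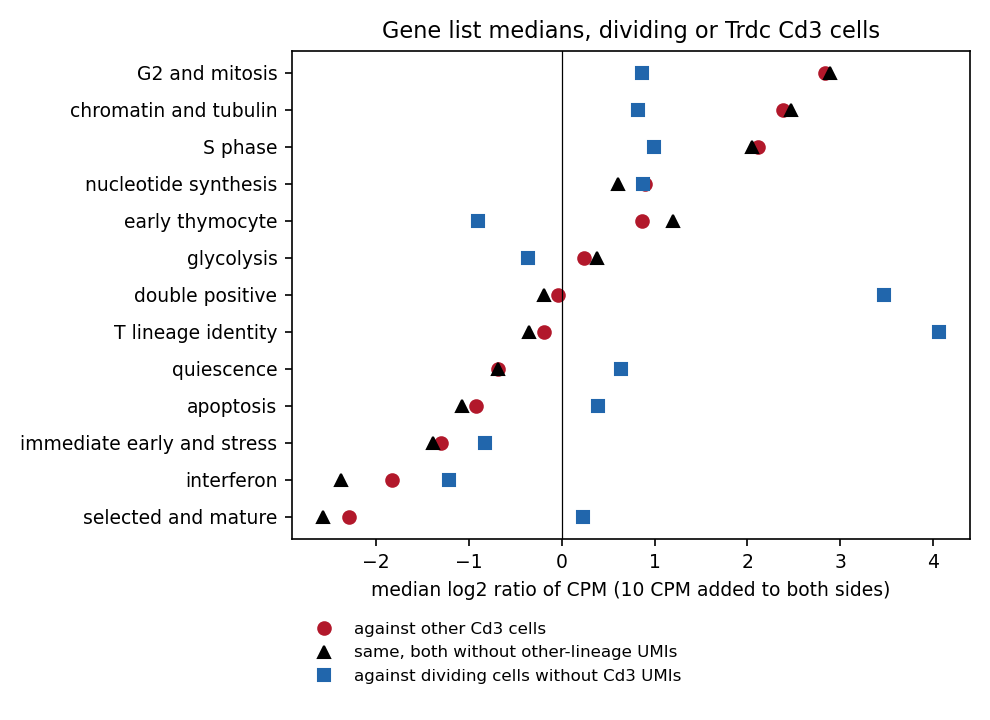
Median log2 ratio of CPM for 13 gene lists (10 CPM added to both sides) in the dividing Cd3 cells against the other Cd3 cells (red circles), the same with cells holding other-lineage UMIs left out on both sides (black triangles), and against dividing cells without Cd3 UMIs (blue squares). Cycle lists lie to the right in all 3 comparisons, and selected and mature genes lie to the left against the other Cd3 cells.

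Of 13 genes of the quiescence list, 3 were at least 2-fold lower and 1 was higher, with a median of -0.68, against 10.0% lower and 13.1% higher over all genes. Btg1, an antiproliferative gene, stood at 358 CPM (301 to 423) against 1883 CPM (1727 to 2049), and had a UMI in 37.2% against 73.0% of cells at 1000 UMIs. Cdkn1b, the inhibitor p27, was at 81.1 (55.1 to 115) against 113 CPM (77.3 to 160), so the groups overlapped. Cdkn2c, the inhibitor p18 of the G1 kinases, was the higher gene, with 52 UMIs in 38 dividing Cd3 cells (136 CPM) against 5 UMIs (17.7 CPM), a ratio of 7.70 (3.10 to 24.7). Ccnd2, a G1 cyclin, had 7 UMIs against 65. The other lower genes named by size were Igkc, with 17 against 350 UMIs, Ccl5 with 20 against 341, Ifi27l2a with 69 against 680, Shisa5 with 19 against 129, Cd53 with 8 against 70, Rgs1 with 8 against 63, Icos with 3 against 37, Ifi209 with 2 against 32 and Vsir with 1 against 30. Igkc encodes an antibody light chain and Ccl5 a chemokine of killer cells. In this comparison only the dividing Cd3 cells were held to the natural killer and C1q limits. Of the 208 other Cd3 cells, 22 lay outside these limits. The choice of cells thus bears on the Ccl5 difference, and its part was not tested. Of the 350 Igkc UMIs, 295 lay in 1 other Cd3 cell, so 1 cell set most of that difference. Cd53, Ccnd2 and Icos kept their direction without other lineages, where Ifi27l2a led with 13 against 358 UMIs, followed by Tnfrsf4 with 0 against 53. Cd52 and Tmsb10, which mature T cells express strongly, had 33 against 469 and 231 against 1857 UMIs there.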

How the data were processed

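Single cells from CD64-sorted thymus of adult C57BL/6 mice were measured with the 10x Genomics 3′ chemistry in 2 libraries of 1 group. The deposited values are unnormalized UMI counts of genes in barcodes. Per the file headers, Cell Ranger 6.0.0 made those of 2021 and Cell Ranger 8.0.0 those of 2024. The genome build was mm10, per the submitters' processing notes, and the annotation and the use of intronic reads are not given in the sources used here. The 2024 counts were used without gene names and give depth only.

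Cells were chosen from raw counts, counts were summed over the cells of each group, and genes with at least 15 UMIs in total entered a comparison. Log2 ratios of CPM had 10 CPM added to both sides and were called at 1 or more and at -1 or less. Where a group had 0 UMIs no ratio is printed. The entry, Cd3, natural killer and C1q genes were left out. With 1 library there is no test and no p-value, and doublets were left in. The genes named by size are, in either direction, the 12 of largest ratio that reached 100 CPM and had a UMI in at least 10% of cells of the higher group, leaving out mitochondrial and ribosomal protein genes, gene models and receptor segments, with the genes of the lists named as list members. Some genes of the lists are not reported here. The members and the gene lists were chosen with earlier results of these data known. The planned comparison of entry by Trdc with entry by division genes had 3 cells against 77, so its genes are not named. Entry by both, the dividing cells without Cd3 UMIs and the coreceptor split were added after values were seen, as were the lists of other lineages without Ighm, Ly6d, Ccr9 and Bst2. Alternatives changed the cell filters, depth, the added CPM, the gene filter and the handling of doublets and other lineages. The comparison was also run on simulated group sums with planted changes. Those sums held no spread between cells and no mixed droplets, so the run checked the calculation only.

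Promoters came from RefSeq, assembly GRCm38.p6, a patch release of the assembly behind mm10. Python 3.11.15, numpy 2.4.6, scipy 1.17.1, pandas 2.3.3, scanpy 1.11.5 (Scrublet, expected rate 6%) and matplotlib 3.10.9 were used.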

Additional observations from a re-analysis of the deposited data

How the results depend on the processing

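Of 537 values recomputed under the alternatives, 32 changed sign, all of them among Rag1, Cd4, Ccr9, Cd8b1, Bcl11b, Gata3, Satb1 and the medians of the early thymocyte and gamma-delta lists. No paired analysis was possible because the 2 libraries form 1 group and only 1 was read by gene. The S phase and G2 and mitosis medians (2.12 and 2.84) kept their sign in every alternative run. They were 1.92 and 3.27 without the 6% of cells with the highest Scrublet scores, 2.61 and 3.24 at 2000 UMIs per cell, 2.49 and 3.23 at 1000 UMIs, 2.54 and 4.19 without cells of other lineages by the lists as first written, 2.46 and 3.15 with no CPM added and counts under 3 set to 3, and 1.60 and 2.07 when the rule itself was applied to counts thinned to 1000 UMIs. The median of selected and mature genes was -2.76 with no addition, and that of early thymocyte genes was -5.06 at 2000 UMIs, where 1 gene remained.

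The number of higher genes (734) was 444 at 1000 UMIs, 361 without other lineages by the first lists and 268 with the thinned rule. The number of lower genes (560) was 213 at 2000 UMIs, 202 at 1000 UMIs, 241 without other lineages by the first lists, 334 by the adjusted lists, 319 with the natural killer and C1q limits as well, 1044 with genes of 5 or more UMIs and 172 with the thinned rule. Fewer counts or genes entered in each of these except the 1044. The 98 members were 27 without other lineages by the first lists, which hold Ly6d, a gene these thymocytes carry, and 48 under the thinned rule.

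Rag1 (-1.07) was at 0.42 with at least 1000 UMIs, 500 genes and at most 5% mitochondrial UMIs, 1.42 at 2000 UMIs, 0.54 at 1000 UMIs and 0.35 with the thinned rule. Cd4 (-0.70) was at 0.21, 0.60, 1.03 and 0.345 under the same settings and at 0.81 without other lineages by the first lists. Ccr9 (-1.44) was at 0.69 at 2000 UMIs. Cd8b1 ranged from -0.38 to 1.70, Bcl11b from -0.27 to 0.80, Satb1 from -0.10 to 1.52, Gata3 from -0.33 to 2.01 and the gamma-delta median from -1.72 to 1.25. The cause was not tested. Low counts limit the early and gamma-delta lists, in which few genes reached 15 UMIs.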

Other observations

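Metabolic genes moved less than cycle genes in the dividing Cd3 cells. Of 16 genes of nucleotide synthesis, 13 were compared with the other Cd3 cells, 6 were at least 2-fold higher and none lower, with a median log2 ratio of 0.90. Over all genes 13.1% were higher and 10.0% lower. Without other lineages only 6 genes of the list were compared and 1 was at least 2-fold higher, with a median of 0.61. Over all genes 16.1% were higher there. Impdh2, the rate-limiting enzyme of guanine nucleotide synthesis, had 55 UMIs against 13, a ratio of 3.13 (1.69 to 6.25), and Hprt, which salvages purines, 75 against 23, though at 1000 UMIs per cell Hprt was found in 9.57% against 12.4% of cells. Paics, of purine synthesis, was at 91.5 against 77.7 CPM with overlapping intervals. Of 13 glycolysis genes compared, 3 were at least 2-fold higher and none was 2-fold lower. Their median was 0.24, and 8 of the 13 log2 ratios were above 0. Gapdh stood at 1425 against 675 CPM and Tpi1 at 183 against 67.1 CPM, while Aldoa stood at 149 (113 to 193) against 286 CPM (227 to 356).

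Interferon genes were lower, 10 of 11 compared by at least 2-fold, with a median of -1.83 (-2.38 without other lineages). Over all genes 10.0% were at least 2-fold lower. Isg15 had 22 UMIs in 11 dividing Cd3 cells against 65 UMIs in 27 other Cd3 cells, and Ifi27l2a stood at 180 against 2402 CPM. Immediate early and stress genes had a median of -1.30, with 8 of 10 lower. Junb stood at 353 (296 to 418) against 1116 CPM (997 to 1246) and had a UMI in 21.3% against 57.3% of cells at 1000 UMIs. Fos stood at 264 against 537 CPM. Among apoptosis genes Mcl1 and Bcl2, which keep cells alive, were lower, Bcl2 with 2 UMIs against 20, and Cycs, cytochrome c, was higher at 426 against 205 CPM.

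The 16 Cd3 cells that failed the natural killer or C1q limit had a median of 6320 UMIs. They held 91 Top2a UMIs in 15 cells and 41 Dntt UMIs in 12, together with 90 C1qa UMIs in 13 cells, 376 Apoe UMIs in 15 and 118 Ccl5 UMIs in 7. Thymocyte and macrophage or killer cell transcripts were thus read from the same barcodes, and mixed droplets, engulfed cells and free RNA cannot be told apart in them.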
